A study of Mus musculus with 12 samples.

Results

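Testes of ICR mice, an outbred stock, were compared by RNA sequencing between animals that had received busulfan followed by gut microbiota (IMC) and animals with no treatment (Con). The IMC mice were given 1 dose of busulfan, an alkylating agent toxic to dividing germ cells, at the age of 3 weeks, then, for 2 weeks, gut microbiota from donor mice treated with water (ddH2O), and testes were taken after another 3 weeks. The comparison uses 6 of the 12 libraries of the series, 3 IMC and 3 Con, chosen by their labels. A second busulfan group (Sa, 3 libraries), also given 1 dose at the age of 3 weeks, received saline in place of microbiota. It is used at the end to ask whether the distance from untreated testis differed between these groups. The weeks of saline and the time at which Sa testes were taken are not given in the labels used here. Any difference in timing cannot be told apart from the microbiota. The age of the Con mice is not given in the labels, and the deposited text speaks of cultured testis without naming a culture step. The Con columns of the table have a name prefix of their own, and any batch this marks cannot be told apart from the absence of treatment. The values are the authors' FPKM (fragments scaled by transcript length and library total), and the 14782 genes that reached 1 FPKM in 3 or more of the 6 libraries were tested.

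In the adult testis, germ cells pass from spermatogonia through meiotic spermatocytes to round spermatids, which then elongate and replace their histones first with transition proteins and then with protamines. Sertoli cells in the tubule nourish these cells, and Leydig cells between the tubules make testosterone. Busulfan is widely used to empty the tubules of germ cells, because the stem and progenitor spermatogonia that renew the lineage are sensitive to it while most somatic cells no longer divide.

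The 3 IMC libraries were close to each other, with correlations across genes of 0.965 to 0.984 on the log2(FPKM + 1) scale, and the 3 Con libraries were closer still (0.992 to 0.993). Between the groups the correlation was 0.453 to 0.618, with IMC replicate 3 the farthest from Con (0.453 to 0.478). The median distance of a gene from its Con mean was 1.29, 1.25 and 1.51 log2 units in IMC replicates 1, 2 and 3. The FPKM of all genes summed to between 476127 and 501122 in the IMC libraries and between 569055 and 576093 in the Con libraries, and read depth is unknown.

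Nearly the whole transcriptome of IMC testes differed from that of untreated testes. Of the 14782 genes, 87.6% passed limma at an adjusted p under 0.05, with 7941 (53.7%) higher in IMC and 5013 (33.9%) lower. The libraries of the 2 groups did not overlap in 89.4% of genes. Because such a call is this common, changes of at least 2 log2 units were also counted, a rule chosen after the values were seen, and they comprised 2655 higher genes (18.0%) and 1709 lower genes (11.6%). The extremes were uneven. A rise of at least 4 log2 units was found in 97 genes and a fall of that size in 324. The balance of the calls depends on how the libraries are scaled. The median log2 fold change of all genes was 0.51 in FPKM, and median-of-ratios scaling moved it by -0.52, so that 6455 genes were higher and 6522 lower (49.7% of calls higher, against 61.3% in FPKM). Quantile normalization moved the median by -0.33 and gave 6914 higher and 5841 lower genes, and rescaling each library to the same sum moved it by 0.24 and gave 8489 and 4479. At the other end, 1066 genes had a 95% interval of the log2 fold change that lay within 0.5 of 0.

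**Figure D1:**
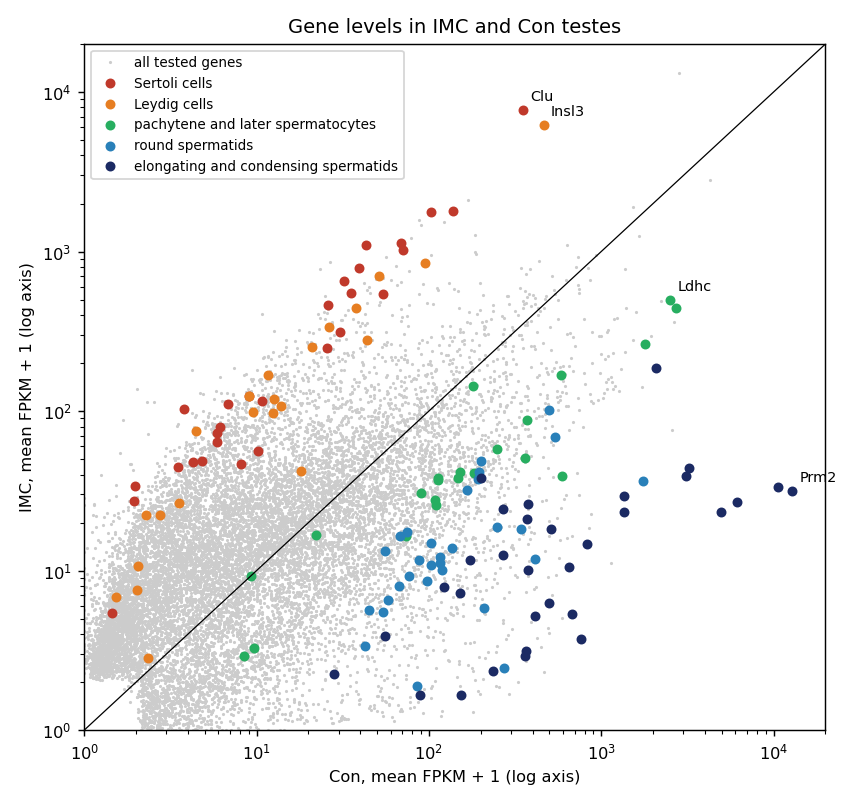
Mean FPKM + 1 of each tested gene in IMC (vertical, log axis) against Con (horizontal, log axis), with 5 gene lists coloured and the line of equal level drawn. The 32 elongating spermatid genes and the 30 round spermatid genes lie below the line and the 28 Sertoli cell genes above it.

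The deepest falls were in the genes of the last stage of sperm formation. Prm2, one of the protamines that package sperm DNA, had 39.8, 37.9 and 14.2 FPKM in the IMC libraries, against 12998, 12779 and 12824 FPKM in the Con libraries. All 3 IMC libraries lay far below all Con libraries, and IMC replicate 3 was the lowest (log2 fold change -8.80 ± 0.37 SE, limma adjusted p = 1.05e-06). Its partner Prm1 had 44.1, 35.6 and 17.6 FPKM in IMC, against 11022, 10299 and 10602 FPKM in Con. The order of the libraries was the same, and the log2 fold change was -8.41 ± 0.31 (adjusted p = 6.98e-07). Tnp2, a transition protein that is replaced by the protamines, had 33.4, 30.2 and 13.6 FPKM in IMC, against 6261, 5543 and 6523 FPKM in Con. Tnp1, the other transition protein, fell in the same way, by 7.79 ± 0.24. Even after falls of 328-fold (Prm1) and 420-fold (Prm2) in mean FPKM, no IMC library had these transcripts at 0. In bulk tissue, fewer cells of a type and less RNA per cell cannot be told apart, which applies to every level given here.

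Prm1, Prm2 and Tnp2 are neighbours on chromosome 16, where they form a cluster read from the minus strand and used together late in sperm formation. Their promoters are shown because these were the 3 deepest falls of all named genes. They are RefSeq sequences on GRCm38.p6, written 5′ to 3′ from 250 bases before to 50 after the gene start. Prm1 lies at chr16:10796774-10797073, Prm2 at chr16:10792056-10792355 and Tnp2 at chr16:10788606-10788905. They were searched on both strands for 5 motifs, namely TGACGTCA (the palindromic cyclic AMP response element, CRE), its core TGACG, which lies inside the palindrome, AACGG (the core of the site of MYB factors), GTTGCC (an RFX half-site) and CAAGGTCA (an SF-1 site). Capitals mark a match.
Prm1: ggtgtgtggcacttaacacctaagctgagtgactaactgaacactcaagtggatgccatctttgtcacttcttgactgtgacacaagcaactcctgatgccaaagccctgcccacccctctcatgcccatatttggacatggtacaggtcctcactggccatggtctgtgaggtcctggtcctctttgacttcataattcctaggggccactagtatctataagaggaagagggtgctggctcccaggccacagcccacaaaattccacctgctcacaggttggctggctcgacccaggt
Prm2: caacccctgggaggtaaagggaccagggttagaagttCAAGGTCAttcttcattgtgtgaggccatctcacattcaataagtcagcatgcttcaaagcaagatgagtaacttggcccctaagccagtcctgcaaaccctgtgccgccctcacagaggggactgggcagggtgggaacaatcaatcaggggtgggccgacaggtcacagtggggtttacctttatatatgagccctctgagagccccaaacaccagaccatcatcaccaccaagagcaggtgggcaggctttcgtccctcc
Tnp2: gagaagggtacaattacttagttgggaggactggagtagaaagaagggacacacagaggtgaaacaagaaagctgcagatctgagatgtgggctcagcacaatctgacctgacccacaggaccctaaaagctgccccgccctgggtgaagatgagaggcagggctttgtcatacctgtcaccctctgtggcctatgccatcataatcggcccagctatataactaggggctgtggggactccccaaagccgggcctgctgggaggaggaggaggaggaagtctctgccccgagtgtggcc
Prm1 and Tnp2 hold none of the 5 motifs in this window, and Prm2 holds 1 SF-1 site, found in 1.41% of the promoters of all tested genes.

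All 32 tested genes of elongating and condensing spermatids fell, where 33.9% of all genes did, and their log2 fold changes ran from -8.80 to -2.54 with a median of -5.90 against 0.51 over all genes. As a median of members, the list stood at 2.12, 1.5 and 0.980% of its Con mean in IMC replicates 1, 2 and 3. In the share of all FPKM, the list held between 0.0762 and 0.169% in IMC and between 9.09 and 9.59% in Con. The other large falls were in Spem1, needed to strip cytoplasm from the sperm head, with 2.94, 3.13 and 2.10 FPKM in IMC, against 828, 715 and 732 FPKM in Con. Its groups were far apart, at -7.68 ± 0.14 (adjusted p = 2.51e-07). H2al2a, a histone variant that loads with transition proteins, had 1.00, 1.62 and 0.410 FPKM in IMC, against 333, 338 and 315 FPKM in Con, and fell by 7.40 ± 0.21. Nudt16l2, Oxct2b, Spata3, Cabs1, Dnajb8 and Fam71f2 complete the 12 largest falls and fell by between 7.10 and 6.94, with no overlap of libraries in any of them. Smcp, a protein of the sperm mitochondrial capsule, and Oaz3, the spermatid antizyme of polyamine control, were among the 10 most abundant genes of untreated testis and fell by 6.26 ± 0.27 and 6.38 ± 0.26.

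**Figure D2:**
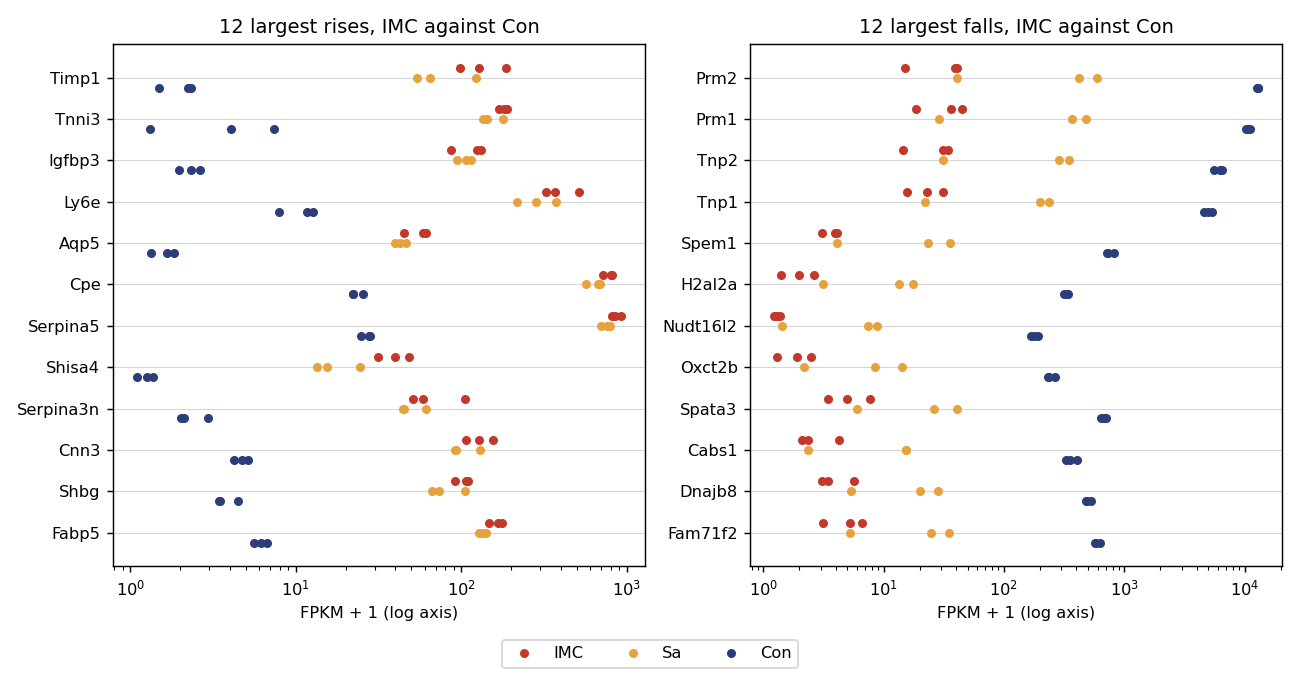
FPKM + 1 (log axis) in every IMC, Sa and Con library for the 12 largest rises (left) and 12 largest falls (right) between IMC and Con. Each dot is 1 library, and in all 24 genes the 3 IMC libraries lie clear of the 3 Con libraries.

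The depth of the fall differed between stages of the germ line. All 30 genes of round spermatids fell by at least 2 log2 units (11.6% of all genes), with a median of -3.26 and a range of -6.80 to -2.16. Tssk6, a kinase of spermatids, had 1.38, 1.66 and 1.33 FPKM in IMC, against 293, 269 and 255 FPKM in Con. The 3 IMC libraries were nearly equal to each other and the log2 fold change was -6.80 ± 0.10 (adjusted p = 2.51e-07). Gsg1, a germ cell membrane protein, had 45.0, 38.0 and 22.8 FPKM in IMC, against 1874, 1713 and 1676 FPKM in Con. It was 49.7-fold lower in mean FPKM. Actl7b, an actin-like protein of spermatids, fell less, by 3.04 ± 0.29.

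The 29 tested genes of the sperm tail axoneme all fell, where 33.9% of all genes did, with a median of -2.32. With all 12 libraries in the fit, 20 of them passed. With replicate 3 of another group of the series (IMA10) left out of that fit, 29 passed. Tekt5, a filament protein of tail microtubules, had 6.89, 9.63 and 2.87 FPKM in IMC, against 118, 114 and 116 FPKM in Con. No library overlapped (-4.09 ± 0.34, adjusted p = 2.35e-05). Dnah8, a motor chain of the outer dynein arm, had 45.8, 85.8 and 17.3 FPKM in IMC, against 280, 366 and 379 FPKM in Con. IMC replicate 3 was far below replicate 2 here, and the fall of 3.02 ± 0.52 carried a wider error (adjusted p = 0.00105). Rsph1, a radial spoke protein, remained abundant at 342, 403 and 190 FPKM in IMC, against 1065, 1107 and 1074 FPKM in Con.

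Of the 22 genes of pachytene and later spermatocytes 19 fell and none rose, where 33.9% of all genes fell and 53.7% rose, with a median of -2.06. Ldhc, the lactate dehydrogenase of germ cells, had 563, 670 and 253 FPKM in IMC, against 2518, 2528 and 2476 FPKM in Con. Every IMC library was below every Con library (-2.45 ± 0.35, adjusted p = 0.000394). Meig1, needed for the shaping of spermatids, had 540, 568 and 226 FPKM in IMC, against 2530, 2777 and 2862 FPKM in Con, and fell by 2.72 ± 0.35. Pgk2, the phosphoglycerate kinase of germ cells, had 48.1, 46.0 and 20.4 FPKM in IMC, against 594, 577 and 610 FPKM in Con. It showed the largest fall of the list, 4.02 ± 0.31 (adjusted p = 1.57e-05). Adam3, a sperm surface protein, fell by 2.98 ± 0.40. With all 12 libraries sharing 1 estimate of the spread, 6 of these 22 genes passed. Leaving IMA10 replicate 3, which is outside this comparison, out of that fit gave 19. The list stood at 28.9, 31.8 and 12.7% of its Con mean in IMC replicates 1, 2 and 3, so that IMC replicate 3 kept the least of it.

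Promoters of 3 genes from these lists are shown next, because each holds the MYB core AACGG, a motif that many genes of these lists share. They are RefSeq sequences on GRCm38.p6, with Pgk2 at chr17:40208560-40208859 on the minus strand, Ldhc at chr7:46861013-46861312 on the plus strand (the first of 2 starts) and Dnah8 at chr17:30626686-30626985 on the plus strand. Capitals mark matches to the same 5 motifs on either strand, so that CCGTT is AACGG on the other strand.
Pgk2: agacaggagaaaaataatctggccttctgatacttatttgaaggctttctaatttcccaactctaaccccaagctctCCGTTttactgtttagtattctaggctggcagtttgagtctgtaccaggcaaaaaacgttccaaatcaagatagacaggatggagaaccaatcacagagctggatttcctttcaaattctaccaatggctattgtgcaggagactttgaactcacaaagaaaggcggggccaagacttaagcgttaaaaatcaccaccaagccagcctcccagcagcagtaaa
Ldhc: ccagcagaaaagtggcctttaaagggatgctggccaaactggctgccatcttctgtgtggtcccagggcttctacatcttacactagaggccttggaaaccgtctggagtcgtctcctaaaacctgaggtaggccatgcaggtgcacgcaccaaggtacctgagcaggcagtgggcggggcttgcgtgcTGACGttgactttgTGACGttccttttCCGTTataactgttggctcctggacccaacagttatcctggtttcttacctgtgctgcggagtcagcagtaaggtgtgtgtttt
Dnah8: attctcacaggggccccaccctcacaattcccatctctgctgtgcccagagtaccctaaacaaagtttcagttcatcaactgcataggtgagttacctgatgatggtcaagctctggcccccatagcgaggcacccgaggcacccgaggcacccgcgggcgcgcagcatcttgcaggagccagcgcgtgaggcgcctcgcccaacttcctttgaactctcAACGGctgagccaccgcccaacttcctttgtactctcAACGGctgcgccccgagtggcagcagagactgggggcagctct
The MYB core AACGG was found in the promoters of 10 of 15 pachytene genes (66.7%), 14 of 24 axoneme genes (58.3%), 9 of 16 piRNA pathway genes (56.2%) and 12 of 26 genes of early meiotic prophase (46.2%). It was found in 9 of 28 round spermatid genes (32.1%), 3 of 28 elongating spermatid genes (10.7%) and 2 of 15 Sertoli cell genes (13.3%), in 4 of 9 genes of undifferentiated spermatogonia (44.4%), and in 26.4% of 11172 tested genes with a promoter. Among the 262 genes with a promoter that fell by at least 4 log2 units, 8.40% held it. The RFX half-site was found in 10 of 24 axoneme genes (41.7%), against 16.0% of tested genes. These shares describe letters in a window of 300 bases, and no binding was measured.

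**Figure D3:**
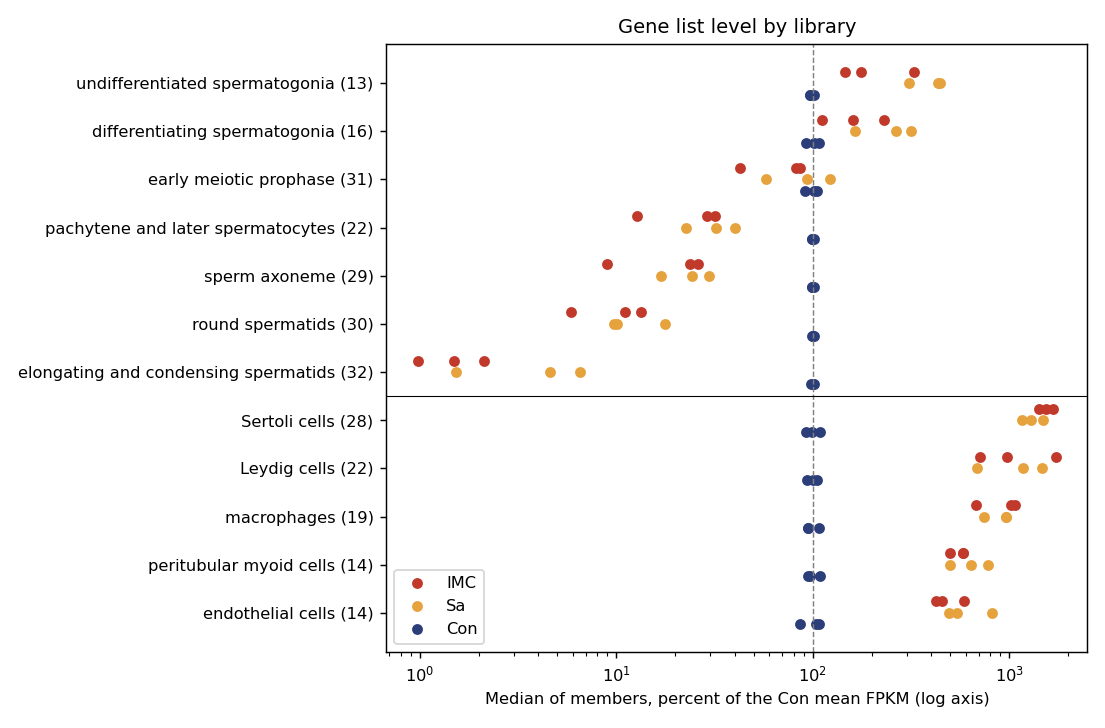
Median level of the tested members of 12 gene lists in each IMC, Sa and Con library, as percent of the Con mean FPKM (log axis), with the number of tested members in brackets. Germ cell lists run from spermatogonia at the top to elongating spermatids, where the IMC libraries stand at 0.98 to 2.12%, and somatic lists lie to the right of 100%.

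Genes of the piRNA pathway, which silences transposons in germ cells, fell in 17 of 20 cases, against 33.9% of all genes, with a median of -1.41. Mael, a germ granule protein of this pathway, had 260, 302 and 121 FPKM in IMC, against 971, 1025 and 1006 FPKM in Con. It fell by 2.23 ± 0.33 with no overlap (adjusted p = 0.000441). Gtsf1, a cofactor of PIWI proteins, and Tdrd6, a scaffold of the chromatoid body, fell by 2.48 ± 0.29 and 2.44 ± 0.39. Fkbp6, a chaperone of piRNA loading, was the 1 member that rose, with 90.8, 119 and 87.6 FPKM in IMC, against 35.2, 37.4 and 31.8 FPKM in Con (1.47 ± 0.14, adjusted p = 4.91e-05). With all 12 libraries in the fit, 3 members fell, and 14 did with IMA10 replicate 3 left out of it.

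Of 31 tested genes of early meiotic prophase 12 fell, 5 rose and 14 did not pass, with a median of -0.48. The share that fell was near the 33.9% of all genes, and rises were fewer than the 53.7% of all genes. Syce2 and Syce1, of the central element of the synaptonemal complex that joins chromosomes in meiosis, fell by 2.70 ± 0.23 and 2.18 ± 0.35. Prdm9, which marks sites of recombination, had 3.83, 5.45 and 2.69 FPKM in IMC, against 1.32, 1.35 and 1.54 FPKM in Con. It rose by 1.02 ± 0.20 (adjusted p = 0.00214), and Dmc1, the recombinase of meiosis, by 1.01 ± 0.27. Rad21l, a meiotic cohesin subunit, and Zcwpw1, a reader of the marks that Prdm9 sets, were also higher, at 0.76 ± 0.22 and 0.70 ± 0.23. These counts move with the processing. Median-of-ratios scaling gave 22 lower and 1 higher. All 12 libraries gave 2 and 1, and 11 and 4 with IMA10 replicate 3 left out. The number that rose was 8 without IMC replicate 3 and 3 without Con replicate 1 or 3.

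Spermatogonial genes rose about as often as genes at large. Of 21 genes of undifferentiated spermatogonia 13 were high enough to test, and 7 of them rose and 2 fell, where 53.7% of all genes rose and 33.9% fell, with a median of 0.59 against 0.51 over all genes. Etv5, a factor of stem cell renewal that Sertoli cells express too, had 35.5, 38.7 and 37.6 FPKM in IMC, against 5.2, 4.79 and 4.42 FPKM in Con. The groups were clearly apart (2.72 ± 0.10, adjusted p = 5.98e-07). Gfra1, the receptor for the stem cell factor GDNF, had 0.910, 1.27 and 0.750 FPKM in IMC, against 2.40, 2.74 and 2.54 FPKM in Con. It fell by 0.86 ± 0.13 (adjusted p = 0.000442), and Lhx1, a factor downstream of GDNF, by 1.08 ± 0.14. The members below the filter include Nanos2, Pax7 and Eomes, which were under 1 FPKM in all 6 libraries. In the same libraries the summed FPKM of the 28 Sertoli cell genes was 17660 to 20720 in IMC, against 997.5 to 1173 in Con, and its part in the spermatogonial levels was not tested. Uchl1, a ubiquitin hydrolase, had 93.5, 133 and 140 FPKM in IMC, against 22.3, 24 and 20.2 FPKM in Con, and rose by 2.39 ± 0.17. Rescaling the libraries to the same sum raised the number of rises in the list to 11.

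The 16 genes of differentiating spermatogonia gave 8 rises and 4 falls, with a median of 0.54, and neither the share of rises nor the median was far from that of all genes (53.7% and 0.51). Dmrt1, a factor of spermatogonia and Sertoli cells, had 53.5, 55.8 and 57.2 FPKM in IMC, against 9.36, 9.76 and 8.52 FPKM in Con, and rose by 2.47 ± 0.09. Dmrtb1, which controls the entry into meiosis, had 104, 125 and 40.9 FPKM in IMC, against 415, 413 and 430 FPKM in Con, and fell by 2.36 ± 0.39. Ddx4, the germ cell helicase, fell by 1.78 ± 0.34, and Tex13a by 4.35 ± 0.19. Median-of-ratios scaling left 4 rises in this list, as quantile normalization did, and 5 rose without Con replicate 1 or 3. Of 24 genes of DNA replication and mitosis, 9 rose and 10 fell, where 53.7% of all genes rose and 33.9% fell. Mcm3, a subunit of the replication helicase, had 23.9, 29.6 and 21.5 FPKM in IMC, against 8.0, 8.12 and 7.5 FPKM in Con. It rose by 1.54 ± 0.13 (adjusted p = 2.69e-05), and Mcm2 and Mcm4 of the same complex by 1.45 ± 0.20 and 1.34 ± 0.12. The kinases Plk1 and Aurka and the cyclin Ccnb2, which act in division, fell by 1.91 ± 0.35, 1.68 ± 0.39 and 1.85 ± 0.30. Under median-of-ratios scaling 4 genes of this list rose. With all 12 libraries 1 fell, and 8 fell with IMA10 replicate 3 left out.

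All 28 tested Sertoli cell genes rose, where 53.7% of all genes did, and 27 of them by at least 2 log2 units (18.0% of all genes). Their median was 3.73, and the list stood at 1530, 1410 and 1670% of its Con mean in IMC replicates 1, 2 and 3. Clu, the secreted chaperone clusterin, had 7373, 7233 and 8678 FPKM in IMC, against 385, 346 and 325 FPKM in Con. The IMC libraries were similar to each other and all far higher (4.46 ± 0.15, adjusted p = 5.37e-07). Inha, the inhibin subunit by which Sertoli cells restrain the pituitary, had 1098, 1013 and 1195 FPKM in IMC, against 48.0, 41.5 and 37.6 FPKM in Con. It was 26.0-fold higher in mean FPKM. Shbg, the androgen-binding protein, rose by 4.76 ± 0.14, and the defensin gene Defb19 by 3.70 ± 0.12. The lysosomal protease Ctsl, 1 of the 10 most abundant genes of IMC testis, rose by 4.12 ± 0.12. Over the same libraries the summed FPKM of the 32 elongating spermatid genes was 381.9 to 804.8 in IMC, against 51830 to 54550 in Con. FPKM is relative to the library total, so a fall of 1 abundant class and a rise of the others cannot be fully told apart from these values. The number of Sertoli cell genes that rose was 27 with a filter of 5 FPKM and 28 under the other alternatives tried.

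Of 22 Leydig cell genes 21 rose and none fell, where 53.7% of all genes rose, with a median of 3.10. Insl3, a peptide hormone of Leydig cells, had 3248, 4563 and 10883 FPKM in IMC, against 450, 465 and 475 FPKM in Con. All IMC libraries were higher, but they spread widely and IMC replicate 3 stood highest (3.55 ± 0.42, adjusted p = 0.000140). Cyp17a1, an enzyme of androgen synthesis, had 429, 940 and 1165 FPKM in IMC, against 113, 74.0 and 95.7 FPKM in Con, and rose by 3.05 ± 0.37. Nr5a1, the steroidogenic factor that gave the SF-1 site its name, had 104, 113 and 151 FPKM in IMC, against 9.17, 7.35 and 7.49 FPKM in Con. It varied less among the IMC libraries than Insl3 did and rose by 3.77 ± 0.16. Sult1e1, which inactivates oestrogens, rose by 3.90 ± 0.40. The list stood at 706, 974 and 1720% of its Con mean, with IMC replicate 3 again apart.

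Cholesterol, from which steroids are made, is synthesised by a chain of enzymes, most of which were higher in IMC. Of 22 genes 17 rose and 3 fell, where 53.7% of all genes rose and 33.9% fell, with a median of 1.61. Ebp, a late enzyme of the chain, had 97.2, 98.7 and 110 FPKM in IMC, against 6.08, 6.32 and 5.79 FPKM in Con. It rose by 3.86 ± 0.09 (adjusted p = 4.64e-07), and Dhcr7, the last step, by 3.63 ± 0.16. Fdft1, the squalene synthase, had 46.5, 57.8 and 46.4 FPKM in IMC, against 143, 138 and 137 FPKM in Con, and fell by 1.46 ± 0.11. Sqle, the next enzyme, fell by 0.75 ± 0.14. With all 12 libraries in the fit, 1 gene of the list fell and Sqle did not pass (limma adjusted p = 0.0615). With IMA10 replicate 3 left out of that fit, 3 fell.

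Marker genes of other cells of the testis wall, vessels and interstitium were higher with few exceptions, beside 53.7% of all genes that rose. Of 14 peritubular myoid genes 13 rose (median 2.19). Myl9, a myosin light chain of smooth muscle, rose by 3.22 ± 0.13, while Actg2, a smooth muscle actin, had 27.8, 19.0 and 18.1 FPKM in IMC, against 260, 244 and 250 FPKM in Con. It fell by 3.50 ± 0.16 (adjusted p = 1.58e-06), against the direction of its list. Of 14 endothelial genes 12 rose (median 1.69), with Robo4, a receptor of vessel walls, at 4.48 ± 0.13, while the endothelial factor Sox17 fell by 0.76 ± 0.14. Of 19 macrophage genes 17 rose (median 2.62), among them Lyz2, a lysozyme, by 3.46 ± 0.21 and Fcer1g, an Fc receptor chain, by 3.79 ± 0.22. Aif1, often used as a macrophage marker under the name Iba1, had 12.9, 11.9 and 9.83 FPKM in IMC, against 310, 310 and 339 FPKM in Con. It fell by 4.68 ± 0.12 (adjusted p = 4.64e-07), and the Fc receptor gene Fcgr3 by 1.03 ± 0.24. Of 22 genes of the extracellular matrix 21 rose and none fell (median 2.19), with Sparc, a matrix glycoprotein, at 4.02 ± 0.15.

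Markers of lymphoid cells and of tissue outside the testis were mostly low in both groups. Of 14 genes of T, B and mast cells only Cd3d, a T cell receptor chain, passed the filter, and it fell by 2.80 ± 0.14. The summed FPKM of the list was 2.50 to 5.73 in IMC, against 10.6 to 11.3 in Con. Most of the Con sum was Cd3d itself, with 0.5, 0.86 and 0.39 FPKM in IMC, against 10.69, 9.52 and 9.56 FPKM in Con. With no filter, 5 genes of this list were higher in IMC and 2 lower. Of 9 epididymis genes 1 was tested, with list sums of 1.93 to 3.44 in IMC, against 4.26 to 4.84 in Con, and Adam7 was at 0 in all 6 libraries. The tested gene, Rnase10, held most of the Con sum, at 4.1, 4.22 and 4.03 FPKM. With no filter, 1 epididymis gene was higher and 1 lower. Of 8 skeletal muscle genes 2 were tested and neither passed, with sums of 3.68 to 5.43 in IMC, against 3.18 to 4.60 in Con. Of 8 adipocyte genes 3 were tested, with sums of 6.55 to 6.88 in IMC, against 13.8 to 15.0 in Con. Adipoq, the fat cell hormone adiponectin, fell by 3.06 ± 0.18, Fabp4, a lipid carrier, rose by 1.34 ± 0.12, and Cfd was at 0 in all 6 libraries. Adipoq held most of the Con sum of the adipocyte list, at 12.48, 12.58 and 11.22 FPKM. With no filter, 3 adipocyte genes were higher and 2 lower. For red blood cells 3 of 7 genes were tested, with sums of 225 to 273 in IMC, against 37.1 to 50.4 in Con, and the part of blood in the other results was not tested. The globin gene Hba-a1 rose by 2.52 ± 0.23 and Alas2, the first enzyme of haem synthesis in red cells, by 2.51 ± 0.15.

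The largest rises were spread over secreted, membrane and structural proteins. Timp1, an inhibitor of matrix metalloproteinases, had 126, 97.2 and 185 FPKM in IMC, against 1.24, 1.33 and 0.490 FPKM in Con. It rose by 6.06 ± 0.27 with no overlap (adjusted p = 1.33e-06). Igfbp3, which binds insulin-like growth factors, had 131, 85.6 and 124 FPKM in IMC, against 0.970, 1.62 and 1.31 FPKM in Con, and was 87.4-fold higher in mean FPKM. Tnni3, a troponin best known from the heart, had 168, 189 and 181 FPKM in IMC, against 6.38, 3.03 and 0.320 FPKM in Con. Here the spread lay among the Con libraries (5.73 ± 0.56, adjusted p = 5.64e-05). Ly6e, a surface protein, Aqp5, a water channel, Cpe, a carboxypeptidase of hormone processing, and the serpin Serpina5 followed, with rises of 5.23 ± 0.24, 5.09 ± 0.17, 5.06 ± 0.11 and 5.01 ± 0.10. Shisa4, Serpina3n, Cnn3, Shbg and Fabp5 make up the rest of the 12, at 4.99 to 4.74.

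Junction genes of the blood-testis barrier, the seal between Sertoli cells, rose in 18 of 21 cases and fell in 2, where 53.7% of all genes rose and 33.9% fell, with a median of 2.43. Cldn11, its main claudin, had 667, 593 and 686 FPKM in IMC, against 33.0, 31.4 and 29.0 FPKM in Con. The groups were far apart (4.34 ± 0.11, adjusted p = 4.64e-07), and Jam2, a junction adhesion molecule, rose by 4.15 ± 0.17. Cldn3, another claudin of the barrier, fell by 1.31 ± 0.19, and Nectin3, by which spermatids adhere to Sertoli cells, by 2.75 ± 0.34. In retinoic acid handling 13 of 16 genes rose and 2 fell (median 1.61), beside the same 53.7% and 33.9% of all genes. Aldh1a1, which makes retinoic acid, had 703, 768 and 1372 FPKM in IMC, against 112, 89.1 and 106 FPKM in Con, and rose by 3.14 ± 0.26. Rdh11, a retinal reductase, fell by 1.74 ± 0.21 and Lrat, which stores retinol as ester, by 0.67 ± 0.11.

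Targets of p53, the factor that answers DNA damage, rose in 19 of 22 cases, against 53.7% of all genes (median 1.83). Sesn2, a stress sensor, had 89.5, 95.3 and 93.0 FPKM in IMC, against 9.52, 8.96 and 7.6 FPKM in Con, and rose by 3.28 ± 0.11. Gadd45b rose by 3.39 ± 0.12. Mdm2, which marks p53 for destruction, had 29.6, 28.0 and 25.0 FPKM in IMC, against 52.7, 57.5 and 57.1 FPKM in Con, and fell by 0.99 ± 0.10 (adjusted p = 6.13e-05). All 15 tested inflammation genes rose, as 53.7% of all genes did (median 2.57), with Nfkbia, the inhibitor of NF-kB, at 4.0 ± 0.15. Cxcl1, a chemokine that draws neutrophils, had 20.9, 11.3 and 42.1 FPKM in IMC, against 0.0700, 0.260 and 0.1 FPKM in Con, and varied more among the IMC libraries (4.31 ± 0.41).

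Glutathione and antioxidant genes rose in 21 of 28 cases and fell in 4 (median 2.25), where 53.7% of all genes rose and 33.9% fell. Glutathione transferases include the enzymes that conjugate busulfan. Gstm1 had 1596, 1943 and 2774 FPKM in IMC, against 181, 151 and 170 FPKM in Con, and rose by 3.61 ± 0.21, as Mgst1 did by 4.19 ± 0.17 and Gsta4 by 3.91 ± 0.10. Gstm5, another transferase of the mu class, had 398, 466 and 213 FPKM in IMC, against 2680, 2621 and 2580 FPKM in Con. Within 1 gene family it moved the other way, by -2.94 ± 0.29 (adjusted p = 5.19e-05). Gpx4, the peroxidase that also builds the sperm midpiece, and Txnrd3, a thioredoxin reductase of the testis, fell by 1.93 ± 0.14 and 2.10 ± 0.31. With median-of-ratios scaling 7 genes of the list fell.

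Several germ cell genes have a somatic counterpart that does the same work in other cells, and 19 such pairs were followed. Of the germ cell genes 18 fell and none rose, where 33.9% of all genes fell and 53.7% rose. Of the somatic partners 13 rose, 3 fell and 2 did not pass, and Gk, the partner of Gk2, was too low to test. The germ cell gene was above its partner in all 3 Con libraries in 16 pairs, but in all 3 IMC libraries in 5 pairs. It was below its partner in all 3 Con libraries in 2 pairs, and in all 3 IMC libraries in 12, these 2 included. Gapdhs, the glycolytic enzyme of the sperm tail, had 28.5, 24.6 and 14.2 FPKM in IMC, against 1437, 1312 and 1316 FPKM in Con. Gapdh had 852, 927 and 1105 FPKM in IMC, against 206, 182 and 173 FPKM in Con. Levels per length thus changed places between the pair in every library. Pgk1, the partner of Pgk2, had 50.2, 51.2 and 64.8 FPKM in IMC, against 9.14, 8.16 and 8.11 FPKM in Con, and rose by 2.57. The heat shock gene Hspa2, essential in male meiosis, fell by 1.85 and its partner Hspa8 rose by 2.67. The mitochondrial subunits Cox8c and Cox6b2 fell by 2.07 and 2.10, and Cox8a and Cox6b1 rose by 3.09 and 2.24. Not all partners rose. Ldha, the somatic partner of Ldhc, had 227, 252 and 166 FPKM in IMC, against 683, 658 and 651 FPKM in Con, and fell by 1.65 (adjusted p = 6.80e-05). Pabpc1, a poly(A)-binding protein, fell by 1.80. Slc25a31, the germ cell carrier of ATP and ADP, was the germ cell gene that did not pass, at -0.47 (adjusted p = 0.129). Genes with near-identical copies, such as Rpl10l with Rpl10, which was listed at 0 in 1 Con library, may exchange reads, and their levels are uncertain.

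**Figure D4:**
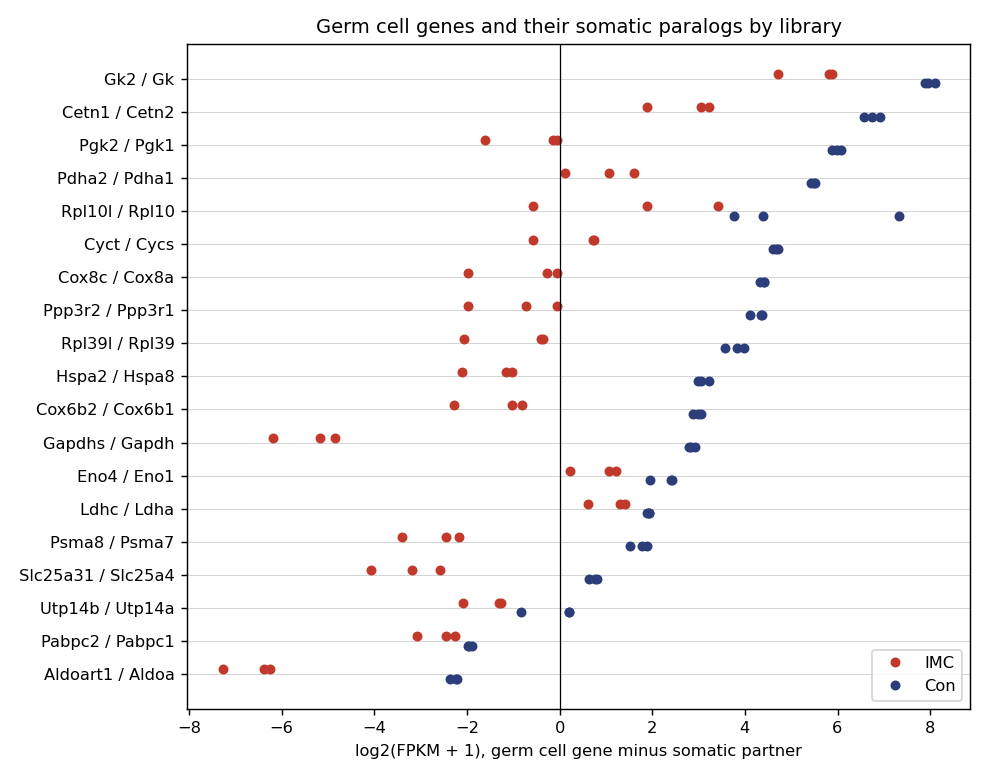
Difference in log2(FPKM + 1) between the germ cell gene and its somatic partner in each IMC and Con library, for 19 pairs. Points right of 0 have the germ cell gene higher, as in all Con libraries for 16 pairs and in all IMC libraries for 5.

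The most abundant transcripts were exchanged. The 10 genes with the highest mean in IMC, led by Col19a1, Clu and Insl3, made up 7.63, 7.39 and 9.87% of all FPKM in the IMC libraries, against 1.73 to 1.80% in the Con libraries. The 10 highest in Con, led by Prm2, Prm1 and Tnp2, made up 3.28 to 3.70% in IMC, against 9.14 to 9.50% in Con. Col19a1 and the ubiquitin gene Ubb were in both sets. They held on average 2.71 and 0.571% of all FPKM in IMC, most of what the Con set held there. In Con they held 0.497 and 0.743%. Prm2, Prm1 and Tnp2 held 0.0063, 0.00668 and 0.00529% in IMC, against 2.25, 1.86 and 1.07% in Con. Col19a1, named for a minor collagen, had 13665, 11864 and 14197 FPKM in IMC, against 2623, 3061 and 2841 FPKM in Con. It rose by 2.22 ± 0.18 (adjusted p = 1.97e-05), and the table does not show where within the gene its reads lie. Ubb had 2778, 3020 and 2579 FPKM in IMC, against 4424, 4238 and 4094 FPKM in Con, and fell by 0.61 ± 0.15 (adjusted p = 0.00697), but it stood at 0.22 with quantile normalization and did not pass there. Of 39 cytosolic ribosomal protein genes 23 rose and 3 fell in FPKM (median 0.48 against 0.51 over all genes, of which 53.7% rose). With quantile normalization 30 rose and 2 fell, and with rescaling to the same sum 27 and 2. With median-of-ratios scaling 7 rose and 14 fell, so that the direction of this family depends on which scaling is used. Rps4x, which is encoded on the X chromosome, had the largest fold change of the list, with 186, 188 and 249 FPKM in IMC, against 18.0, 16.6 and 12 FPKM in Con (3.67 ± 0.18, adjusted p = 2.03e-06).

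The sex chromosomes were examined apart, because they are silenced in pachytene spermatocytes and stay largely repressed in spermatids. On the X chromosome 33.5% of 630 tested genes rose by at least 2 log2 units, against 17.7% of 13212 autosomal genes, and the median log2 fold change was 1.24 against 0.53. Falls of at least 2 log2 units were found in 15.2% of X genes, against 11% of autosomal genes. The share of genes that passed upward was 63.5% on the X and 54.6% on the autosomes. Genes of the X held 2.99, 2.70 and 3.01% of all FPKM in the IMC libraries, against 1.21, 1.27 and 1.26% in the Con libraries. On the Y chromosome 52 of 66 tested genes fell and 5 rose, with a median of -1.42, where 33.2% of autosomal genes fell and 54.6% rose. Many rows of the Y belong to multicopy families whose reads cannot be separated. In 14 of the 66 rows the values repeat, in every IMC, Sa and Con library, those of a row already counted. Without these repeats 40 of 52 fell and 5 rose. The 5 that rose, named after their values were seen, were Ddx3y, Uty, Kdm5d, Eif2s3y and Gm3376. Ddx3y, a helicase used in many tissues, had 7.77, 5.51 and 7.03 FPKM in IMC, against 0.510, 0.730 and 0.760 FPKM in Con. It rose by 2.21 ± 0.14, and Uty and Kdm5d, both histone demethylase family members, by 1.49 ± 0.14 and 1.44 ± 0.16. Eif2s3y stood at 0.40 ± 0.16 and Gm3376 at 0.74 ± 0.24, and neither passed without any 1 of the Con libraries or with median-of-ratios scaling, where Eif2s3y stood at -0.18.

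**Figure D5:**
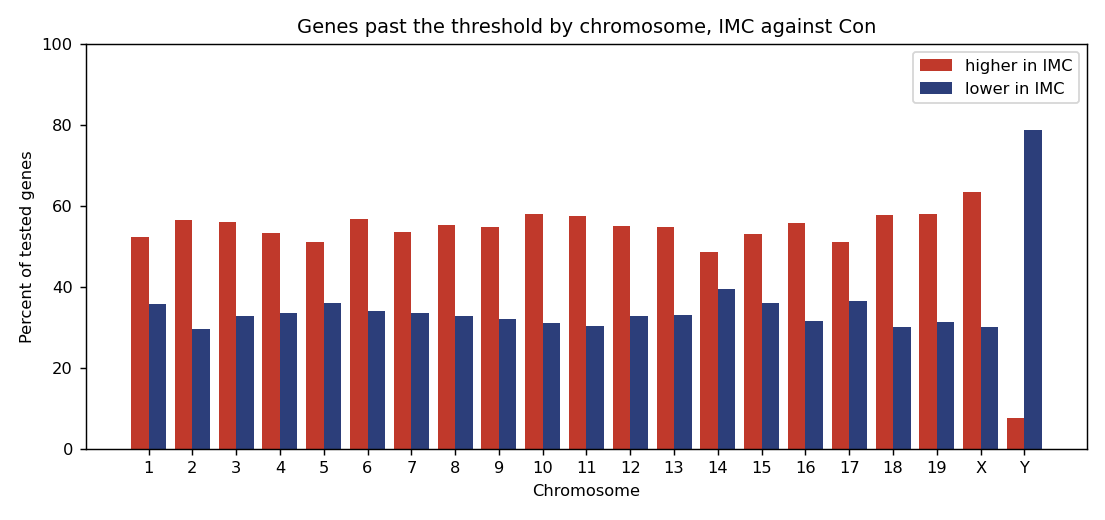
Percent of tested genes that passed the threshold higher (left bar) and lower (right bar) in IMC than in Con, for each chromosome. The X has the highest share of rises, 63.5%, and the Y the highest share of falls, 78.8%.

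The distance of the IMC testes from untreated testis was set beside that of the Sa testes by comparing both busulfan groups directly, because both distances use the same Con libraries. No gene passed in IMC minus Sa (0.0% of 14782, limma, smallest adjusted p = 0.81), with 240 genes higher and 379 lower at an unadjusted p under 0.05. Without Sa replicate 1, 1 gene passed, a new gene of the authors with 16.7, 18.8 and 25.6 FPKM in IMC, against 14.8, 0 and 0 FPKM in Sa and 0.08, 0.04 and 25.5 FPKM in Con. The half-width of the 95% interval of the log2 difference had a median of 0.39, which is the width before adjustment over all genes. In simulated data for this comparison, 51.5% of 200 genes changed by 1 log2 unit were found. The noise there was drawn for each gene apart and the changed genes had a mean log2 level above 2. The share may thus differ in the measured data. The median distance of a gene from the Con mean was 1.29, 1.25 and 1.51 log2 units in the IMC libraries and 1.18, 1.32 and 1.40 in the Sa libraries. The libraries did not overlap in 1388 genes (9.39%).

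In the direction of the differences, most genes of every germ cell list had lower means in IMC than in Sa, early stages included. Lower were 31 of 31 genes of early meiotic prophase (median difference -0.41) and 16 of 16 of differentiating spermatogonia (-0.40). So were 11 of 13 of undifferentiated spermatogonia (-0.14), 21 of 22 of pachytene and later spermatocytes (-0.41) and 30 of 30 of round spermatids (-0.38). The share over all genes was 60.9%. In the order given, libraries did not overlap in 1, 0, 5, 0 and 2 genes of these lists, against 9.39% of all genes. Early meiotic prophase stood at 82.6, 85.7 and 42.5% of its Con mean in IMC replicates 1, 2 and 3. In Sa replicates 1, 2 and 3 it stood at 122, 93.1 and 57.8%, so the groups overlapped. All 32 elongating spermatid genes had a lower mean log2 level in IMC, where 60.9% of all genes did, with a median difference of -1.19 against -0.06 over all genes, but the libraries of the groups overlapped in all but 2 of them. Prm2 had 39.8, 37.9 and 14.2 FPKM in IMC, against 587, 418 and 40.1 FPKM in Sa, so that Sa replicate 3 stood next to the IMC libraries and the other 2 far above. Its difference was -2.91 (unadjusted p = 0.0260, adjusted p = 0.81). Among Sertoli cell genes 26 of 28 had a higher mean log2 level in IMC, where 39.1% of all genes did, with a median difference of 0.25, and 11 did not overlap, against 9.39% of all genes. Defb19 had 1723, 1641 and 2019 FPKM in IMC, against 1265, 1104 and 1368 FPKM in Sa, a difference of 0.53 (unadjusted p = 0.0103). The smallest unadjusted p among higher genes was that of Defb45, a defensin, with 43.0, 37.0 and 34.8 FPKM in IMC, against 25.2, 22.4 and 21.5 FPKM in Sa and 5.62, 5.05 and 4.88 FPKM in Con. Cstdc1, a cystatin family gene, had 176, 157 and 174 FPKM in IMC, against 103, 98.8 and 122 FPKM in Sa. Both were thus farther from the Con libraries in IMC than in Sa, in every library. Gp1bb, a platelet glycoprotein, had 11.8, 7.32 and 8.92 FPKM in IMC, against 3.19, 2.37 and 4.60 FPKM in Sa, and was listed at 0 in all Con libraries. Among lower genes, Slc16a3, a lactate carrier, had 2.77, 3.50 and 3.78 FPKM in IMC, against 7.20, 9.24 and 7.05 FPKM in Sa and 4.98, 4.96 and 5.11 FPKM in Con, so that the IMC and Sa libraries lay on either side of Con. Paqr5, a membrane progestin receptor, had 1.5, 1.34 and 1.15 FPKM in IMC, against 3.71, 2.96 and 2.47 FPKM in Sa and 36.8, 35.3 and 39.9 FPKM in Con. None of these differences passed adjustment.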

How the data were processed

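Testis RNA was sequenced in 12 libraries of 4 groups of 3, and groups and replicate numbers were taken from the labels. The authors deposited 1 table of FPKM values, per the file headers, with 22221 rows, with a program and genome build that were not given in the sources used here. It holds no counts, and a search for steps of 1 read found no ratio shared by more than 2.02% of low genes, so read depth and counting error are unknown. Of the rows, 20288 carry an NCBI Gene ID, of which 20141 matched a RefSeq gene table (GRCm38.p6), and 1933 are new genes named by the authors.

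Values were analysed as log2(FPKM + 1), which understates the change of low genes. The 3 IMC and 3 Con libraries were compared by limma (version 3.58.1 in R 4.3.3), with the prior variance following a trend on level and Benjamini-Hochberg adjustment over all 14782 genes. IMC and Sa were fitted apart on the same genes. An adjusted p under 0.05 counts as passed, errors of fold changes are SEs, and every adjusted p in the text is limma's. Whether replicates are separate animals is not said in the labels, so a p-value reflects the spread among these libraries alone, which may be technical. In simulated data for IMC minus Con, log2 changes of 1 and 2 were found in 60.0% and 94.0% of 200 changed genes, and for IMC minus Sa in 51.5% and 89.5%. The changed genes were drawn from those with a mean log2 level above 2, and all others of the 14782 were left unchanged. Noise was drawn for each gene apart, so that no simulated library shifts many genes together, as measured libraries may. In the measured IMC minus Con comparison 87.6% of genes passed, so its simulated shares belong to a setting unlike the data.

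Gene lists (27 with 577 members, of which 509 were tested), pairs of genes and motifs are described by counts and medians. Members, lists and rules were chosen with earlier results of these data known. Genes are named where they are among the 12 largest rises or falls without overlap and with 5 FPKM or more in the higher group (predicted symbols left out), the 10 highest genes of a group, the 5 with the widest range in IMC, the 5 highest with an interval within 0.5 of 0, the 5 smallest p of IMC minus Sa in each direction, or members of a pair. From each list the rule takes the 2 highest and the 2 most changed members and those that moved against the majority. The text prints a selection made after values were seen. Alternatives were 3 scalings, a pseudocount of 0.1, no filter or one of 5 FPKM, other sets of libraries, a replicate block, no variance trend and leaving out each library. Promoters were taken from RefSeq (32851 starts of 27025 genes), and a gene counts as holding a motif where any of its starts does. Some genes taken by these rules are not reported here.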

Additional observations from a re-analysis of the deposited data

How the results depend on the processing

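Of the 131 genes named from the comparison of IMC with Con, 2 that had passed changed sign under an alternative. With median-of-ratios scaling Eif2s3y was at -0.18, and with quantile normalization Ubb was at 0.22. Leaving out 1 library at a time, Eif2s3y ranged from 0.28 to 0.52. The cause was not tested. Rpl26, Znrd1as and Hbb-bs, which did not pass, also changed sign. Over the alternatives they ran from -1.687 to 1.398, from -1.11 to 1.635 and from -1.092 to 0.865. Calls of 25 named genes were lost in 52 of their values, more with all 12 libraries in the fit than under any other alternative. Another 2029 values kept their side of the threshold, and their direction where the gene had passed. Of the list counts, 28 moved by over 1.5 times under some alternative. The counts of IMC minus Con lay between 5799 and 9444 for higher genes and between 3612 and 6522 for lower genes, and the lowest and highest numbers tested were 10984 and 21363. The 3612 came from the fit of all 12 libraries, which gave 4953 lower genes with IMA10 replicate 3 left out. Leaving out 1 library at a time gave 7662 to 8049 higher and 4730 to 5060 lower genes. IMC minus Sa gave 0 genes, except 1 with no filter (Defb37, at or under 0.26 FPKM) and 1 without Sa replicate 1 (a new gene of the authors, at 14.8 FPKM in that library and 0 in the other 2 Sa libraries), so that leaving out 1 library gave 0 to 1.

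Deviations of same-numbered IMC and Con libraries from their group means correlated at -0.136, 0.0437 and -0.155. Those of same-numbered IMC and Sa libraries correlated at 0.339, -0.121 and 0.578, and of differently numbered ones at -0.605 to 0.488. Deviations from a mean of 3 libraries are tied to each other, so these values cannot decide whether replicate numbers pair the libraries. With the replicate block, 7747 genes were higher and 4869 lower, and IMC minus Sa gave 0.

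With 3 libraries a group and unknown depth, a missed threshold does not show that levels were equal.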

Other observations

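Rows that the authors name as new genes were lower in IMC more often than higher. Of 829 that were tested, 304 were higher in IMC than in Con (36.7%, against 53.7% of all genes) and 364 lower (43.9%, against 33.9%), with a median log2 fold change of -0.19.

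The 5 genes with the widest range among the IMC libraries varied among the Con libraries too. The ribosomal protein gene Rpl26 had 109, 6.04 and 211 FPKM in IMC, against 5.28, 167 and 185 FPKM in Con. The tubulin gene Tubb5 had 2.96, 86.0 and 55.6 FPKM in IMC, against 0.05, 8.04 and 0.190 FPKM in Con, and Abcf1, a translation factor, had 1.53, 28.0 and 15.7 FPKM in IMC, against 1.8, 21.3 and 1.61 FPKM in Con. The antisense gene Znrd1as had 0.410, 15.2 and 5.53 FPKM in IMC, against 0.210, 53.4 and 1.41 FPKM in Con. The globin gene Hbb-bs had 0, 14.1 and 0.580 FPKM in IMC, against 0, 5.27 and 2.07 FPKM in Con, while Hba-a1 stayed between 157 and 207 FPKM in IMC and between 21.1 and 38.7 FPKM in Con. Of the 5 genes Tubb5 passed as higher in IMC (limma adjusted p = 0.0356), with overlapping libraries.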
